A study of Mus musculus with 8 samples.

Results

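A set of 10 transcriptional regulators was read from whole-transcriptome arrays of the fetal mouse small intestine: Neurog3, Neurod1, Insm1, Nkx2-2, Myt1, St18, Rcor2, Mlxipl, Sox4 and Runx1t1. The 10 genes were taken by name as factors of the endocrine progenitor or of endocrine cells in general, and every non-control probe carrying one of these names was kept, which gave 15 of the 55681 probes on the array. Of these, 14 probes lay well above background on at least 4 of the 8 arrays and were tested, and each of the 10 genes kept at least 1 of them among the 25330 genes tested. The rule takes genes by name, and the names were listed with earlier results of these data known.

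The samples were small intestines taken at embryonic stage E18.5, with 4 control and 4 mutant arrays. Control replicates 1, 3 and 4 were Rfx6 fl/+ and control replicate 2 was Rfx6 fl/fl, so every animal carried at least 1 floxed (Cre-excisable) allele of Rfx6, a transcription factor gene of endocrine cells. All 4 mutants were Rfx6 fl/fl Ngn3-cre, in which Cre acts in cells that have switched on Ngn3 and in their descendants. Ngn3 is another name for Neurog3, so only the mutants carried a construct named for a gene described here. Which Neurog3 sequences that construct holds is not given in the sources used here, and effects of Cre and of the loss of Rfx6 cannot be told apart in this design. The descriptions of mutant replicates 2 to 4 name other Rfx genes; their titles and source names say Rfx6 and were followed. The labels number the samples but do not state that each came from a separate embryo, so p-values measure the spread between these samples.

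Endocrine cells are a sparse secretory lineage of the gut epithelium. Notch signalling between neighbouring cells, acting through Hes repressors, limits which cells of the secretory branch switch on Neurog3, a basic helix-loop-helix factor made for a short time and required for the intestinal endocrine lineage. Neurog3 activates a second tier that includes Neurod1, Insm1 and Nkx2-2, which stay on in maturing cells, while Myt1 and St18 (related zinc-finger factors) and the corepressors Rcor2 and Runx1t1 are active in endocrine and neural progenitors. Mlxipl, the carbohydrate response factor also called ChREBP, and Sox4, an HMG-box factor, are in addition made by many cells outside this lineage.

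All values are log2 spot intensities, scaled so that 0 is the 75th percentile of intensity on the same array. Levels of different probes cannot be compared with each other, and in whole tissue fewer cells of a type cannot be told apart from less RNA per cell. That percentile lay between 788 and 1027 intensity units, 59.7% to 69.9% of probes were well above background, and no spot was saturated. Mutant replicate 1 stood apart: it correlated with the remaining arrays at 0.978 on average, whereas each of those averaged 0.990 to 0.991. The Rfx6 probe did not separate the groups, with a difference of -0.50 ± 0.52 (SE, n = 4 per group; limma adjusted p = 0.823), and it therefore does not check the labels. All 9 intestinal epithelial markers were tested and none differed by the limma test. Their differences were positive for 5 and negative for 4, with a median of 0.022. Vil1, the brush-border protein villin, had means of 6.39 in controls and 6.49 in mutants. Lgr5, Cdh1 and Epcam were lower in mutants, by -0.23 ± 0.19, -0.22 ± 0.10 and -0.20 ± 0.11 (SE; limma adjusted p = 0.821 for each). Across all genes 15 of 25330 passed an adjusted p of 0.05 (0.0592%), 14 of them lower and 1 higher in mutants.

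The probes decide which transcripts are seen. Neurog3, Neurod1 and Nkx2-2 each had probes that behaved differently, and the first 30 of their 60 bases are printed here, 5′ to 3′, as the file headers' annotation and the deposited files give them, with nothing in capitals. Positions are on genome build mm9; exon and UTR positions were not used here.
Neurog3 probe A_55_P2182187, chr10:61597452-61597511, plus strand: gtctcccgtgtctaaagtgtgagttgcagg
Neurog3 probe A_55_P2096028, chr10:61596051-61596110, plus strand: tattcttttgagtcgggagaactaggtaac
Neurod1 probe A_52_P408391, chr2:79293621-79293680, minus strand: tttgttgtgattttgtacagaatttttaat
Neurod1 probe A_55_P2004972, chr2:79294309-79294368, minus strand: cgctcagcatcaatggcaacttctctttca
Nkx2-2 probe A_55_P1985911, chr2:147008949-147009008, minus strand: tttcaactatgaaaaaggaaaatatgtgta
Nkx2-2 probe A_55_P1985905, chr2:147003307-147003366, minus strand: cacaattgaagcatatatttccacctcttc
The Neurog3 probes start 1401 bases apart, and the upstream probe, A_55_P2096028, is assigned to an Ensembl transcript rather than to the RefSeq mRNA. The Neurod1 probes differ in base content, with 23.3% G and C in A_52_P408391 and 45% in A_55_P2004972. The Nkx2-2 probes are assigned to different transcripts, A_55_P1985911 to transcript variant 1 and A_55_P1985905 to transcript variant 2.

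Neurog3, at the head of the cascade, had the smallest p of the 10 genes and was the only gene of the 10 whose groups did not overlap. Its level was 0.047, 0.23, 0.14 and 0.18 in control replicates 1 to 4, and 1.03, 0.72, 0.89 and 0.98 in mutant replicates 1 to 4. Every mutant array lay above every control array. The means were 0.15 ± 0.076 and 0.91 ± 0.14 (SD, n = 4 each), a difference of 0.76 ± 0.098 (SE; 95% confidence interval 0.53 to 0.98), or 1.69-fold (1.45 to 1.97). The limma adjusted p was 0.0550, just above the threshold of 0.05, and the gene ranked 17 of 25330 by p. Under 6 of 21 other ways of processing it passed, the lowest adjusted p being 0.0210 and the highest 0.571. The difference was 0.74 among the arrays of slide row 1, 0.77 among those of row 2, and 0.71 without mutant replicate 1.

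The upstream Neurog3 probe was dim. It read -7.61, -8.09, -5.92 and -7.45 in controls and -5.90, -5.49, -5.30 and -6.24 in mutants, and was well above background on 0 of 4 control and 1 of 4 mutant arrays, so it was not tested and gives no second measurement of the difference.

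**Figure D1:**
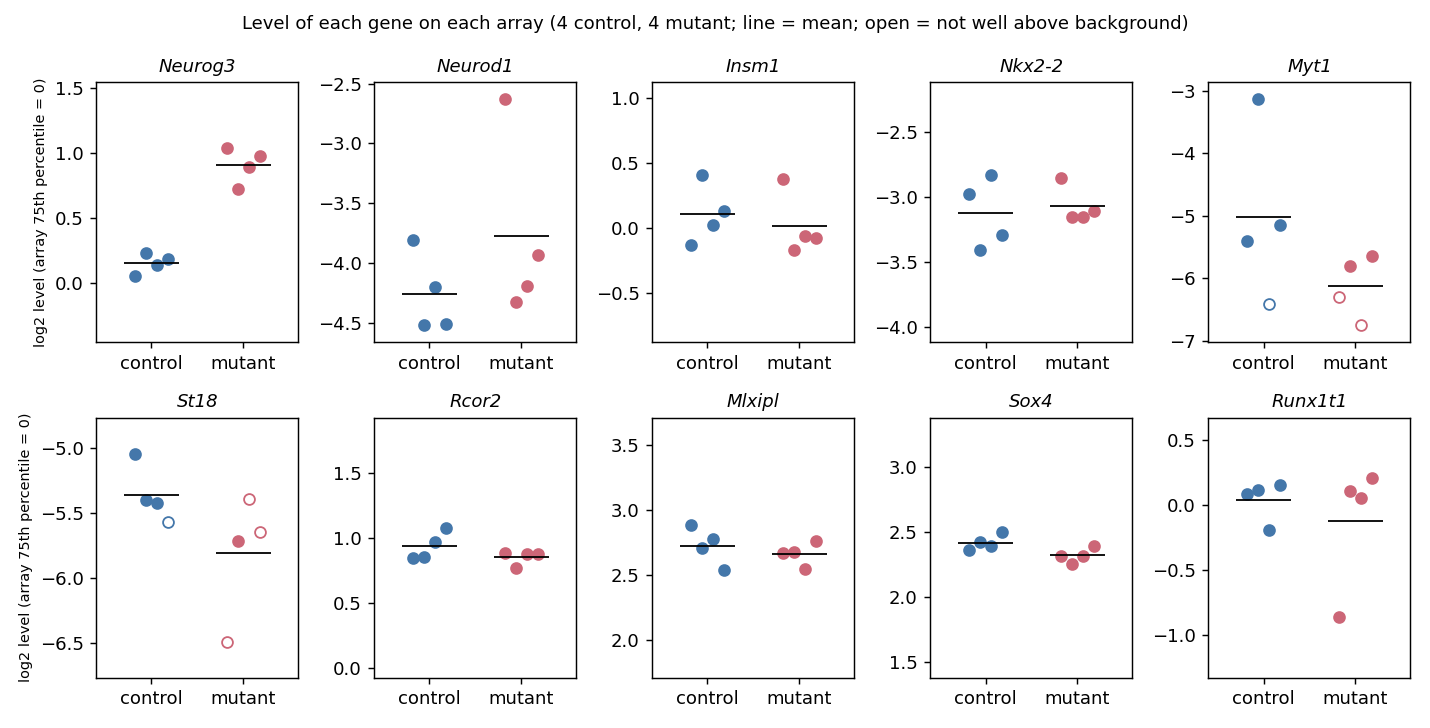
Levels of the tested probe of each of the 10 genes on every array, as log2 intensity with the array's 75th percentile at 0, by group; filled points are well above background and open points are not. The mutant values of Neurog3 (0.72 to 1.03) all lie above its control values (0.047 to 0.23), while the groups overlap for the other 9 genes.

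Neurod1, a helix-loop-helix factor and direct target of Neurog3 that is needed for secretin and cholecystokinin cells, was measured by both of its probes. A_52_P408391 read -3.81, -4.52, -4.20 and -4.51 in controls and -2.63, -4.33, -4.20 and -3.93 in mutants. Mutant replicate 1 alone was above the highest control, and the groups overlapped. The difference of 0.49 ± 0.36 (SE, n = 4 per group; interval -0.33 to 1.31; limma adjusted p = 0.821) was 0.11 without that array. A_55_P2004972 read -4.27, -4.06, -4.02 and -4.60 in controls and -4.59, -3.83, -4.10 and -4.41 in mutants. On this probe mutant replicate 1 was next to the lowest of the 8 values, and the difference was 0.0075 ± 0.19. The positive difference of Neurod1 thus rested on 1 array and 1 probe.

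Insm1, a zinc-finger repressor of the same tier, read -0.13, 0.41, 0.027 and 0.13 in controls and 0.38, -0.17, -0.059 and -0.076 in mutants. Control replicate 2 and mutant replicate 1 were the 2 high arrays, and the groups overlapped. Its difference was -0.091 ± 0.16 (SE; interval -0.45 to 0.27; limma adjusted p = 0.884), and 0.0094 without control replicate 2.

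Nkx2-2, a homeodomain factor of several endocrine subtypes, read -2.97, -3.40, -2.83 and -3.29 in controls and -2.85, -3.15, -3.15 and -3.11 in mutants on its brighter probe. All mutant values fell inside the control range. The difference was 0.058 ± 0.15 (SE; interval -0.27 to 0.39; limma adjusted p = 0.921). The probe of transcript variant 2 was near background, with -5.31, -4.80, -5.47 and -5.84 in controls and -4.43, -5.60, -4.81 and -5.47 in mutants. Its groups overlapped as well, with a difference of 0.28 ± 0.30 that was 0.063 without mutant replicate 1.

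The zinc-finger genes Myt1 and St18 were close to the limit of detection. Myt1 read -5.40, -3.14, -6.41 and -5.14 in controls and -6.30, -5.80, -6.75 and -5.63 in mutants, well above background on 3 control and 2 mutant arrays. Control replicate 2 was far above the other 7 arrays. The difference of -1.10 ± 0.61 (SE; interval -2.50 to 0.30; limma adjusted p = 0.821) was -0.47 without it. The Myt1 probe had the lowest share of G and C of the 15, 18.3%.

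St18 read -5.04, -5.39, -5.42 and -5.57 in controls and -6.49, -5.71, -5.39 and -5.64 in mutants, well above background on 3 control arrays and 1 mutant array. Mutant replicate 1 was the lowest. The difference was -0.45 ± 0.23 (SE; interval -0.98 to 0.074; limma adjusted p = 0.821), with -0.88 within slide row 1, which held that array, and -0.020 within row 2. Without mutant replicate 1 it was -0.22.

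Rcor2, a corepressor that pairs with the histone demethylase Kdm1a, read 0.85, 0.85, 0.97 and 1.08 in controls and 0.88, 0.77, 0.88 and 0.88 in mutants. These arrays lay close together, and the groups overlapped. The difference was -0.085 ± 0.089 (SE; interval -0.29 to 0.12; limma adjusted p = 0.825). The upper bound of this interval lay below the lower bound for Neurog3, 0.53. The same held for the probe used for each of the remaining genes except Neurod1, whose upper bound was 1.31. It did not hold for every further probe. The upper bound was 0.97 on Nkx2-2 probe A_55_P1985905 and 0.62 on Sox4 probe A_55_P2131899. It was 0.45 on Neurod1 probe A_55_P2004972 and 0.19 on Sox4 probe A_55_P2121613.

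Runx1t1, a corepressor of the ETO family, read 0.081, 0.12, -0.20 and 0.15 in controls and -0.86, 0.10, 0.056 and 0.20 in mutants. Mutant replicate 1 was far below the other 7 arrays, which lay together. The difference was -0.16 ± 0.23 (SE; interval -0.69 to 0.36; limma adjusted p = 0.856) and changed sign to 0.082 without that array.

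The 2 genes made well beyond the endocrine lineage were well above background on all 8 arrays. Mlxipl read 2.88, 2.70, 2.78 and 2.53 in controls and 2.67, 2.67, 2.54 and 2.76 in mutants, all mutant values falling inside the control range. Its difference was -0.062 ± 0.10 (SE; interval -0.29 to 0.17; limma adjusted p = 0.878).

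Sox4 had 3 probes, and the brightest read 2.36, 2.43, 2.39 and 2.50 in controls and 2.32, 2.26, 2.32 and 2.40 in mutants. The groups overlapped, with a difference of -0.096 ± 0.081 (SE; interval -0.28 to 0.088; limma adjusted p = 0.821), the smallest error of the 10 genes. Its other probes gave differences of -0.079 ± 0.12 and 0.15 ± 0.20, and the dimmest had its lowest value in control replicate 1, at -1.87 against -1.30 to -0.91 on the other 7 arrays.

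Counted together, 0 of the 10 genes passed the limma test against 0.0592% of all genes, and 0 of their 14 tested probes against 0.0423% of all probes. At an unadjusted p under 0.05 there was 1 of 10, Neurog3, against 5.34% of all genes. Groups did not overlap for 1 of 10, again Neurog3, against 4.67% of all genes in either direction and 3.04% in the higher direction. The differences were positive for 3 genes and negative for 7, with a median of -0.088 beside 0.031 over all genes. Mutant replicate 1 was the array most often away from its group: 4 of the 10 genes lay over 0.5 from the median of the other 3 arrays of the group there, against 0 or 1 gene on each of the other 7 arrays.

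**Figure D2:**
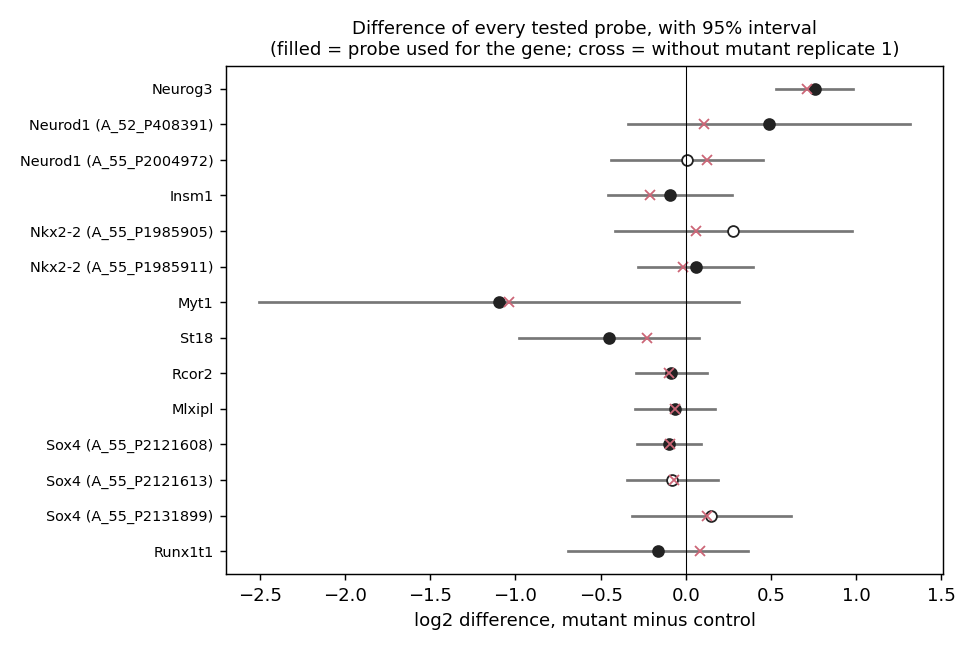
Mutant minus control difference of each tested probe of the 10 genes on the log2 scale, with its 95% confidence interval (filled points, probe used for the gene; open points, other probes; crosses, value without mutant replicate 1). The Neurog3 interval runs from 0.53 to 0.98, and the intervals of the other 9 genes include 0.

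Neurog3 was set against its partners by its level minus that of each other gene within each array, a quantity that does not depend on how arrays are scaled to each other. Neurog3 was picked for this with its separated groups known. The p-values are therefore no independent support for that separation or for a difference from the other genes. Where the other gene moved little, the pair mostly restates the separation of the Neurog3 groups. For 7 of 9 genes all 4 mutants lay above all 4 controls, with a two-sided exact permutation p of 0.0286, the smallest that 70 splits can give, and 0.0367 after Benjamini-Hochberg adjustment over the 9 pairs. The excess of Neurog3 was 0.85 over Insm1, 0.70 over Nkx2-2, 1.21 over St18, 0.84 over Rcor2, 0.82 over Mlxipl, 0.85 over Sox4 and 0.92 over Runx1t1. Between Neurog3 and Sox4 the relative level was -2.27 ± 0.056 in controls and -1.42 ± 0.10 in mutants (SD, n = 4 each), the tightest of the 9 pairs in controls. Since the 7 share the Neurog3 values, they are not independent of each other. St18 was well above background on 1 mutant array only, and its pair gave 0.78 with normexp background correction and 0.85 in the deposited table.

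The excess over Neurod1 was 0.27, with 3 of 4 mutants above all controls (exact permutation p = 0.486, adjusted 0.486), and the excess over Myt1 was 1.85, also with 3 of 4 (exact permutation p = 0.0571, adjusted 0.0643). With the other tested probe of each gene, the excess was 0.75 over Neurod1 (exact permutation p = 0.0571, adjusted 0.0643) and 0.48 over Nkx2-2 (exact permutation p = 0.171, adjusted 0.171). A different change in Neurog3 and in Neurod1, its direct target, did not pass the test on either Neurod1 probe, and the pair with Nkx2-2 passed on 1 of its 2 probes. With mutant replicate 1 left out, the excess was 0.61 over Neurod1 (exact permutation, adjusted p = 0.0857) and 0.73 over Nkx2-2 (adjusted p = 0.0735, no longer past the threshold), and the other 6 pairs that had passed had an adjusted p of 0.0429. The excess over Runx1t1 fell from 0.92 to 0.63 on leaving it out. These p-values carry the same limit, since Neurog3 was picked with its separated groups known. Leaving out that array was also chosen after the data were seen.

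**Figure D3:**
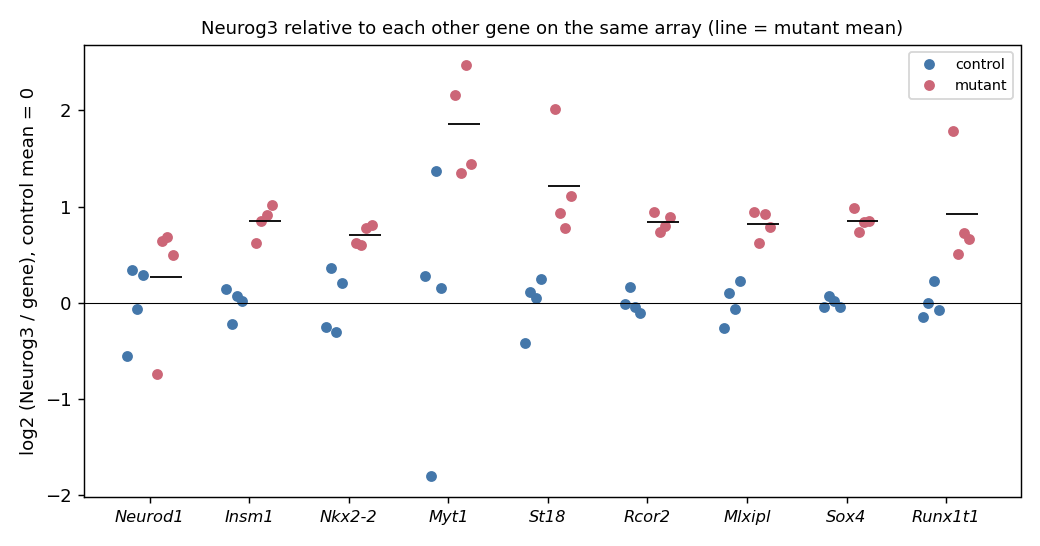
Level of Neurog3 minus the level of each of the other 9 genes on the same array, as log2 values with the control mean of each pair set to 0, for 4 control and 4 mutant arrays. Mutant points lie above all control points for 7 genes, while for Neurod1 and Myt1 1 mutant array overlaps the controls.

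Upstream of Neurog3, the Notch and secretory fate list held 15 genes, of which 14 were tested and 0 passed the limma test. At an unadjusted p under 0.05 there was 1, against 5.34% of all genes, and the median difference was 0.086. Atoh1, the helix-loop-helix factor that opens the secretory branch, had a difference of 0.22 ± 0.091 (SE). The Notch ligand gene Dll1 and the Notch effector Hes1 had differences of -0.025 ± 0.11 and 0.087 ± 0.14. Of the 8 genes of endocrine progenitors, 0 passed, also at an unadjusted p under 0.05, and the median was -0.067. Hes6, a Hes family member linked to Neurog3-positive cells, had a difference of -0.044 ± 0.10. Pak3, a kinase of endocrine progenitors, had a difference of -0.64 ± 0.38 (SE) that was -0.23 without mutant replicate 1, which read -3.58 against -2.10 to -1.74 in the other mutants.

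Among 14 lineage transcription factors, which act after or beside Neurog3, 13 were tested and 1 passed, Isl1, lower in mutants (0.0553% of all genes passed in that direction), with a median of 5.37e-05 for the list. Isl1, a LIM-homeodomain factor, read -3.85, -4.01, -4.29 and -4.04 in controls and -6.99, -6.32, -6.30 and -6.67 in mutants, at least 3.19-fold lower (limma adjusted p = 8.33e-04). The bound sets the controls against the dimmest signal well above background, since Isl1 was well above background on 0 of 4 mutant arrays. Isl1 was tested through its control arrays alone, so its p-value rests on mutant readings at background. The bound holds for the values used here. The difference was -0.63 with normexp background correction (limma adjusted p = 0.0413) and -0.70 in the deposited table (limma adjusted p = 0.00437). With the replicate number as a block Isl1 did not pass (limma adjusted p = 0.0559).

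Groups did not overlap in the other direction for 2 of the 13 tested factors of the list, against 3.04% of all genes. Neither of the 2 passed. Lmx1a, a LIM-homeodomain factor of serotonin cells, had a difference of 0.75 ± 0.11 (SE; limma adjusted p = 0.109). Pax4, a paired-domain factor of pancreatic and gut endocrine cells, read -2.62, -2.21, -2.01 and -2.02 in controls and -1.42, -1.58, -1.54 and -1.54 in mutants (limma adjusted p = 0.335). The Neurog3 difference thus stood beside lower Isl1 and beside non-overlapping, higher values of Lmx1a and Pax4 that missed the threshold.

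Of 10 genes for products of endocrine cells in general 1 passed, the granin Scg2, lower in mutants (0.0553% of all genes passed in that direction). It read 1.00, 1.05, 0.71 and 0.96 in controls and -0.095, -0.25, -0.36 and -0.095 in mutants. Its difference was -1.13 ± 0.11 (SE; limma adjusted p = 0.0102), and the call was lost without control replicate 1, 2 or 4 or mutant replicate 2, with adjusted p of 0.0616 to 0.0733. The median of the list was 0.015, with 6 positive and 4 negative differences. The granin Chgb and the carboxypeptidase Cpe had differences of 0.026 ± 0.096 and -0.0054 ± 0.18. The granins Chga and Scg3 had differences of -0.27 ± 0.14 and -0.24 ± 0.12 (SE; limma adjusted p = 0.821 for both).

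Relatives and partners of the 10 factors gave 0 calls. Of 18 paralogues 12 were tested, with a median of -0.041 and 0 at an unadjusted p under 0.05. All 12 protein partners were tested, with a median of -0.026 and 1 at that level: Tcf12, an E protein that pairs with Neurog3 and Neurod1 class factors, which read 1.54, 1.07, 0.93 and 1.18 in controls and 0.72, 0.90, 0.83 and 0.78 in mutants. Its groups did not overlap on this probe, as held in the lower direction for 1.63% of all genes, and its difference of -0.37 was -0.089 over the mean of its tested probes. All 9 genes of the Mlxipl target list were tested, with a median of -0.053. At an unadjusted p under 0.05 there were 2, against 5.34% of all genes. Groups did not overlap for Pklr (liver pyruvate kinase, -0.33) and Fasn (fatty acid synthase, -0.22), both lower, against 1.63% of all genes in that direction. They also did not overlap for Txnip (a thioredoxin-binding protein, 0.28), higher in mutants, against 3.04% of all genes in that direction.

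**Figure D4:**
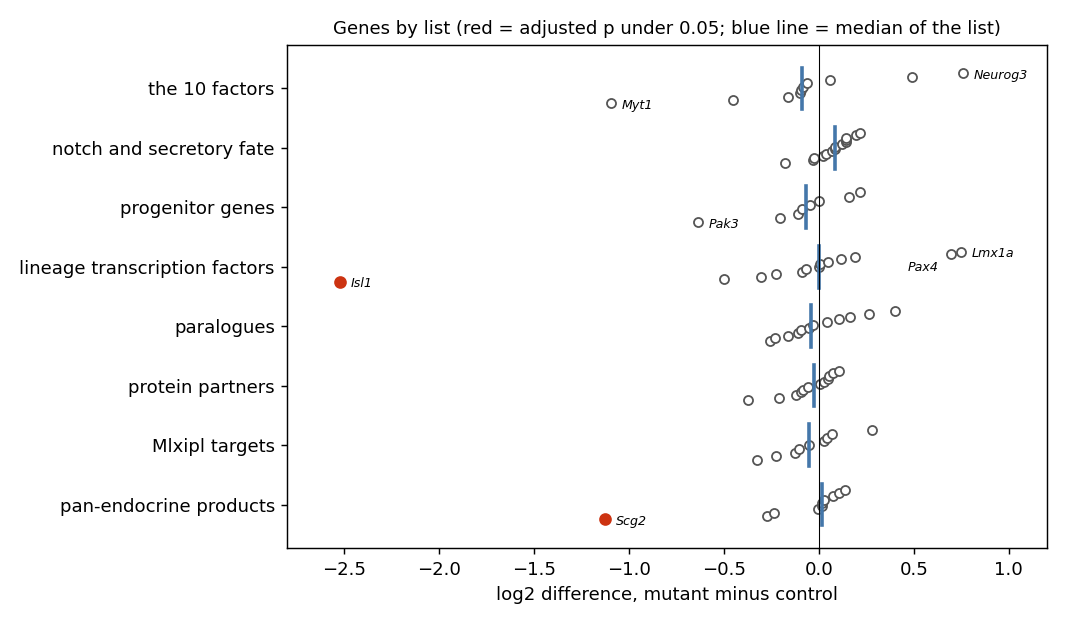
Mutant minus control difference, on the log2 scale, of each tested gene of the 10 factors and of the 7 pathway and product lists (the lists for other cell types are not drawn), with 1 open point per gene, red where it passed the limma test, and a blue line at the list median. Isl1 and Scg2 are the 2 red points, and the medians drawn run from -0.088 for the 10 factors to 0.086 for the Notch and secretory fate genes.

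Markers of other cell types were read for their movement with Neurog3. All 8 tested of 10 pancreatic acinar genes were higher in mutants at an unadjusted p under 0.05, against 5.34% of all genes either way. Of these 0 passed the adjusted test, and the median difference was 1.25. Groups did not overlap for 5, against 3.04% of all genes in that direction. Their mean level was -4.08 to -3.14 in controls and -1.63, -2.40, -1.38 and -0.39 in mutants 1 to 4. Amy2a5 (amylase) and Cela3b (an elastase) had differences of 6.09 and 2.39. Cela2a, another elastase, was well above background on 0 of 4 control arrays. On the values used here it was at least 3.98-fold higher in mutants (limma adjusted p = 0.114). Cela2a was tested through its mutant arrays alone, so its p-value rests on control readings at background. Under the alternatives its log2 difference ran from 1.08 to 4.35. Ptf1a, the defining acinar factor, and Pnlip were not well above background on enough arrays to be tested.

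Of 7 pancreatic islet genes 5 were tested and 0 passed, with 3 negative and 2 positive differences and a median of -0.10. Their mean level was -0.84 to -0.65 in controls and -1.33 to -1.03 in mutants. At an unadjusted p under 0.05 there were 2, both lower in mutants, against 5.34% of all genes. The largest difference was that of Iapp, islet amyloid polypeptide, at -1.74 ± 0.23 (SE; limma adjusted p = 0.0618). Its groups did not overlap, against 1.63% of all genes in that direction. The insulin genes Ins1 and Ins2 had differences of -0.43 ± 0.15 (SE; limma adjusted p = 0.821) and -0.10, and Slc2a2 and Mafa of 0.11 each. Neurog3 is also a gene of the fetal pancreas, and the part of pancreatic RNA in its difference was not tested. Mutants 2, 3 and 4 had the same order for Neurog3 (0.72, 0.89 and 0.98) and for the mean acinar level (-2.40, -1.38 and -0.39). Mutant 1 had the highest Neurog3 level, 1.03, and an acinar level of -1.63, between those of mutants 2 and 3. The controls did not share an order. Control replicate 2 had their highest Neurog3 level, 0.23, and their lowest acinar level, -4.08. Control replicate 1 had their lowest Neurog3 level, 0.047, and an acinar level of -3.69. These orders were not tested.

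Enteric neurons share Myt1, St18, Insm1 and Sox4 with endocrine progenitors. Of 10 neuronal markers 0 passed or reached an unadjusted p under 0.05, with a median of 0.081 and mean levels of 0.0024 in control replicate 3, 0.53 to 0.77 in the other controls and 0.43 to 0.69 in mutants. Of 6 glial markers 0 passed and 1 reached an unadjusted p under 0.05, against 5.34% of all genes. Their median was -0.12 and ran from -0.33 to 0.066 with an array left out. Of 8 mesenchymal markers 0 passed or reached an unadjusted p under 0.05, with a median of 0.089.

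The profile of Neurog3 over the 8 arrays was compared with those of 15710 plainly named genes, each centred on its own mean. Neurog3 itself varied by 0.39 (root mean square about its mean), and the closest genes were Lmx1a at a root mean square distance of 0.087, Echdc3 at 0.131, Odf3b and Tph1 at 0.135 and Tac1 at 0.153. Since the profile of Neurog3 is mostly its group difference, these genes share that shape by choice, and their values are a description with no test.

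Of the 5, Tph1, the enzyme that starts serotonin synthesis in the gut, read -0.43, -0.27, -0.014 and -0.27 in controls and 0.53, 0.22, 0.35 and 0.32 in mutants. Tac1, the precursor of substance P, read 1.70, 1.96, 1.70 and 1.90 in controls and 2.53, 2.35, 2.34 and 2.21 in mutants. Lmx1a read -2.69, -2.49, -2.44 and -2.56 in controls and -1.55, -1.90, -1.90 and -1.84 in mutants. Echdc3 and Odf3b differed by 0.55 each. In all 5 genes, as in Neurog3, mutant replicate 1 was the highest array.

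**Figure D5:**
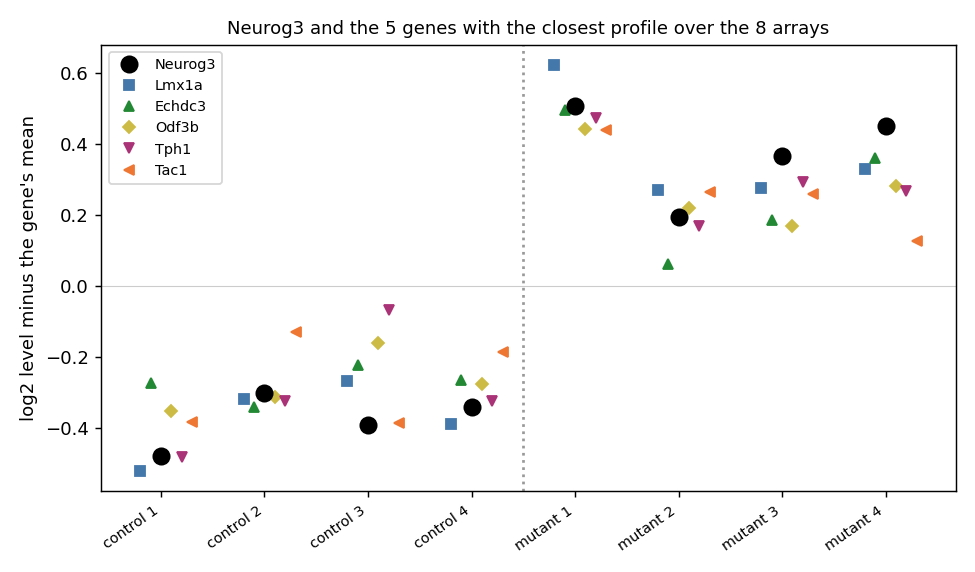
Level of Neurog3 and of the 5 genes with the closest profile on each of the 8 arrays, as log2 values minus the mean of each gene. All 6 genes lie below their mean on the 4 control arrays and above it on the 4 mutant arrays, which is the shape they were chosen for.

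Promoter sequence was looked up for the factors because they act on each other through short motifs: helix-loop-helix factors bind E-boxes, Hes repressors bind N-boxes, and Rfx factors bind X-boxes, whose core the letters GTTGCC stand for here. RefSeq promoters of build GRCm38.p6 (250 bases before to 50 after a start site) were found for 7 of the 10 genes, in 10 entries; Insm1, St18 and Runx1t1 had none. The 250 bases upstream of Neurog3 and of its direct target Neurod1 are printed here 5′ to 3′ along the strand of the gene, with the E-box in capitals.
Neurog3, chr10:62132840-62133089, plus strand: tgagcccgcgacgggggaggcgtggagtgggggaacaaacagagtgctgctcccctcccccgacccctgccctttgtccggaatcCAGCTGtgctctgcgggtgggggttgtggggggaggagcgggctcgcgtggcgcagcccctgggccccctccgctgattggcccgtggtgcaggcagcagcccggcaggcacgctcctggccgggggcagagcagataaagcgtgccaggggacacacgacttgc
Neurod1, chr2:79456637-79456886, minus strand: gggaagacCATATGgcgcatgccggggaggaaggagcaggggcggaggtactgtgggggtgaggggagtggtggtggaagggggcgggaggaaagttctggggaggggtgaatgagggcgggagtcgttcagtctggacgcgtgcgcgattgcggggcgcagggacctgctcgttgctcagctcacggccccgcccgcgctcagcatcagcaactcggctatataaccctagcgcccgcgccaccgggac
Each held 1 match to the E-box CANNTG, starting at base -165 of Neurog3 and -242 of Neurod1 relative to the start site.

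Over the 300 bases and both strands, CANNTG was found in 9 of the 10 entries, against 72.3% of all 32851 promoters in the table. Its form CAGCTG was found in 3 of 10 (Neurog3, Sox4 and 1 of the Mlxipl entries) against 16.3%, and its form CAGATG in 1 of 10 (Nkx2-2) against 17.2%; both forms overlap CANNTG by construction. The N-box CACNAG was found in 5 of 10 against 42.5%, and the RFX motif GTTGCC in 0 of 10 against 12.5%. These matches describe the letters in the windows and were not related to binding.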

How the data were processed

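Per the labels' protocols, RNA was amplified from total RNA and labelled with a single dye. Per the submitters' processing notes, arrays were read with Agilent Feature Extraction 10.10.1.1, and the authors deposited linear spot intensity values, background-corrected and detrended within each array per the file headers. A deposited table of intensity values, whose scale the labels do not state, was taken as linear and served as an alternative. It had a rank correlation of 0.999967 to 0.999984 with the scanner's median spot signal. That signal is not the processed intensity used here.

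Here log2 processed intensity minus the log2 75th percentile of the array was used. Control and outlier spots (117 to 157 per array) were left out and spots of a probe averaged. A probe was tested if well above background (on at least 50% of its spots) on at least 4 of 8 arrays, and the tested probe with the highest mean stood for its gene. Probes were named by accession (26582), older symbol (492) or as in the files (28607). Groups were compared with limma 3.58.1 (lmFit, eBayes) in R 4.3.3, two-sided, with Benjamini-Hochberg adjustment over all 25330 genes, after a test on simulated data. All arrays lay on 1 slide, and 2 arrays shared at most 1 identical spot value. The number of arrays limits the precision.

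The 10 genes and the gene lists were chosen with earlier results of these data known; 1 gene of the lists is not reported here. The text names these 10 genes, list genes that passed, Rfx6 and the 5 genes closest to Neurog3. It also names up to 3 further genes per list with the largest difference among those without overlap. Atoh1, Dll1, Hes1, Hes6, Pak3, Chga, Chgb, Scg3, Cpe, Vil1, Cdh1, Epcam, Lgr5, Ptf1a, Pnlip, Ins1, Ins2, Slc2a2 and Mafa were added after their values were seen. Where a group was mostly at background, its fold is a bound that holds for the values used here. Alternatives covered background, scaling, the deposited table, the probe filter, array weights, variance trend, blocks for slide row and replicate number, and each array left out.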

Additional observations from a re-analysis of the deposited data

Results flagged for a closer look

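A total of 6 groups of 4 arrays held a value far from the other 3 by Dixon's test, of 66 groups looked at, where chance gives about 3.3; 4 of them were in mutant replicate 1. In that array Runx1t1 read -0.864 against 0.056 to 0.20 in the other mutants, Rfx6 read -5.52 against -3.37 to -3.02, Nkx2-2 (probe A_55_P1985911) read -2.85 against -3.15 to -3.11, and Lmx1a read -1.55 against -1.90 to -1.84. Rcor2 read 0.773 in mutant replicate 2 against 0.875 to 0.885 in the other mutants. The second Sox4 probe, A_55_P2121613, read 0.811 in mutant replicate 4 against 0.637 to 0.663.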

How the results depend on the processing

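Each result was recomputed under 21 alternatives, and differences are on the log2 scale. The Neurog3 difference ranged from 0.66 to 0.82. It passed at 0.73 with normexp (limma adjusted p = 0.0219), 0.75 with quantile scaling (0.0299), 0.72 in the deposited table (0.0255), 0.76 with a filter on all 8 arrays (0.0475), 0.66 with array weights (0.0210) and 0.76 with a variance trend (0.0215). Leaving out each array gave 0.71 to 0.82, with adjusted p from 0.0664 to 0.261. The number of the 10 genes passing was accordingly 1 in those 6 settings and 0 with any array left out, and 1 probe passed in the probe-level fit with normexp, the deposited table, array weights or a variance trend. The filter on all 8 arrays dropped Myt1 and St18.

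Over all genes, 27 passed with normexp, 41 with array weights, 23 with a variance trend and 10 to 22 with an array left out, against 15. The genes passing in the other lists, 2 in all, became 4 with normexp, array weights or the slide row as a block, and 1 to 3 with an array left out. Relative to Neurog3, Myt1 passed at 1.07 with normexp and 1.13 in the deposited table, and Nkx2-2 at 0.73 did not without mutant replicate 1, nor at 0.48 on its other probe; both settings were chosen after seeing the data. Signs changed for Insm1 (-0.21 to 0.0094 with an array left out), Nkx2-2 (-0.035 to 0.16), Rfx6 (-0.73 to 0.099) and Runx1t1 (-0.27 to 0.082, and 0.012 with array weights, where mutant replicate 1 had a weight of 0.12). The cause was not tested. With an array left out, the medians of the lineage factor, protein partner, Mlxipl target, pan-endocrine product, enteric neuron, enteric glia and islet lists changed sign, the widest range being -0.33 to 0.066 for glia, and that of the Notch list ran from 0.020 to 0.14.

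The replicate numbers did not pair the samples, with correlations of -0.093, 0.056, -0.069 and 0.091 between same-numbered arrays. With the replicate number as a block 7 genes passed, 0 of them in the other lists, and Neurog3 was at 0.76 (limma adjusted p = 0.571). Signal near background limits Myt1, St18, the upstream Neurog3 probe and the second Nkx2-2 probe.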
